A study of Mus musculus with 2 samples.

Results

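The interferon regulatory factors (IRFs) are DNA-binding proteins that switch on interferon genes and the genes interferons induce, and some of them also direct the formation of blood cell types. The account covers 8 genes of the family, Irf1, Irf2, Irf3, Irf4, Irf5, Irf7, Irf8 and Irf9, found by symbol among the 43346 mouse genes of the deposited tables, and all 8 were found. Their RNA was measured in common myeloid progenitors (CMP), bone marrow cells that give rise to granulocytes, monocytes, red cells and megakaryocytes. Each of the 2 libraries, replicates 1 and 2 in the labels, held total RNA longer than 200 nucleotides from 100 primary cells of male C57BL/6J mice, adults of 5 to 6 weeks. The mice carried no stated allele or treatment, both libraries formed 1 group with no contrast between conditions, and the labels give them separate biosamples and 1 shared donor identifier. The p-values of ratios between genes therefore rest only on the spread between these 2 samples, pooled over genes, which may be technical. Those of the exact binomial and Fisher tests cover counting error alone. Because each library pooled cells, fewer cells with a transcript and less of it per cell cannot be told apart.

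An IRF protein binds a sequence built of GAAA repeats, the interferon-stimulated response element (ISRE). In most cells Irf3 and Irf7 wait in the cytoplasm, are phosphorylated by the kinases Tbk1 and Ikbke when viral nucleic acid is sensed, and then turn on the interferon genes. Secreted interferon acts on its receptor, JAK kinases phosphorylate STAT proteins, and these join Irf9 to form the complex that binds the ISRE of interferon-stimulated genes. In blood formation Irf8 favours monocytes and dendritic cells over neutrophils, and Irf4 serves in dendritic cells, B cells and plasma cells.

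Replicate 1 held 28916263 expected counts and replicate 2 held 26426710, and a count of 0 limits a gene to 0.104 and 0.114 CPM (counts per 1000000), counting error alone. Levels are in TPM (transcripts per 1000000), which is scaled by transcript length, and detection means 1 TPM or more in both libraries. Of 21461 nuclear protein-coding genes 44.9% were detected. Kit and Cd34, surface proteins of the progenitor gate, stood at 98.1 and 93.0 TPM and at 74.5 and 55.4 TPM in replicates 1 and 2, and Il7r and Ly6a, which the gate lacks, were listed at 0 in both. The Fc receptor genes of the gate differed more between the pools, with Fcgr2b at 2.48 and 9.59 TPM and Fcgr3 at 0.64 and 4.27 TPM. Detected markers of mature cells were 5 of 10 for monocytes and macrophages, 2 of 10 for dendritic cells, 2 of 10 for B and plasma cells, 0 of 10 for T and NK cells and 3 of 10 for neutrophils.

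Of the 8 IRF genes 7 were detected, and their levels formed an upper group of Irf3, Irf8, Irf9 and Irf2, a lower group of Irf1, Irf5 and Irf7, and Irf4 below 1 TPM. The 4 upper genes held 86.3% of the family's summed TPM in replicate 1 and 87.5% in replicate 2. The family's median was 12.6 TPM in replicate 1 and 15.7 TPM in replicate 2, beside 13.2 and 13.5 TPM over all detected protein-coding genes. All 8 had 10 or more expected counts in at least 1 library, the minimum for a test.

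**Figure D1:**
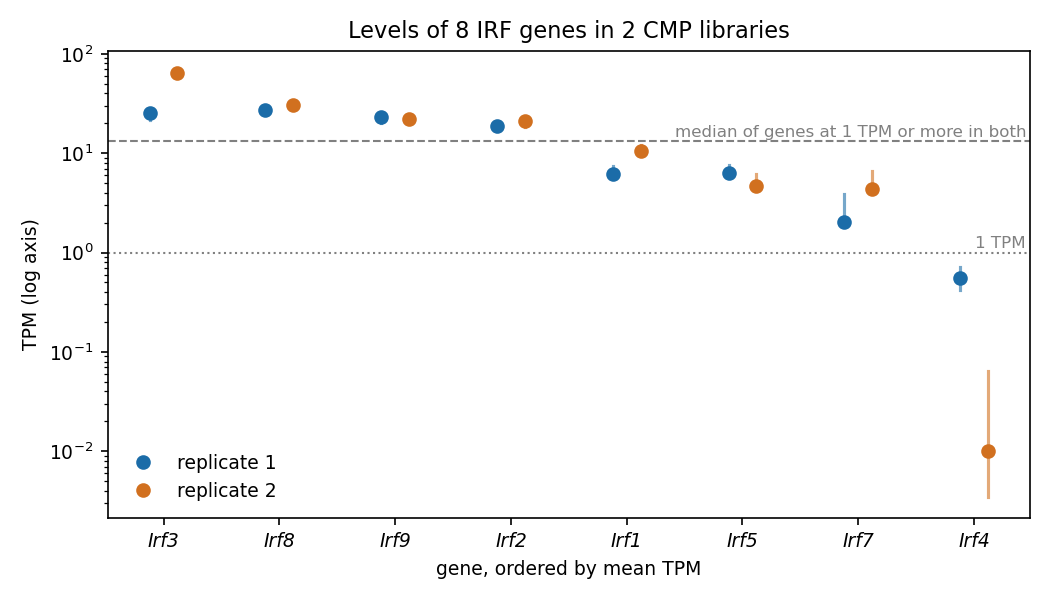
TPM (log axis) of each IRF gene in replicates 1 and 2, with vertical lines for the deposited credibility bounds of the level. Irf3, Irf8, Irf9 and Irf2 lie above the dashed median of detected genes in both libraries, Irf1, Irf5 and Irf7 lie between it and 1 TPM, and Irf4 lies below 1 TPM.

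Irf3, the sensor-activated factor that starts interferon production, had the highest mean level and the widest absolute spread of the 8. It stood at 25.1 TPM (572 expected counts) in replicate 1 and 64.1 TPM (1301 expected counts) in replicate 2, a mean of 44.6 ± 27.5 TPM (SD, n = 2). Replicate 2 was the high library, and Irf3 was below Irf8 in replicate 1. The gene lies on chromosome 7 from 44997648 to 45002848 on the + strand (GRCm38). Its length-scaled level rests partly on short transcripts. Of the 9 Irf3 transcripts in the deposited tables, 2 have an identifier in the later annotation GENCODE M21, and the others could be tied to M21 transcripts only by equal length. The 629-base form, equal in length to the retained-intron transcript Irf3-210, held 37.8% of the gene's TPM in replicate 1 and 29.1% in replicate 2. Forms equal in length to retained-intron transcripts summed to 9.50 TPM in replicate 1 and 36.7 TPM in replicate 2. Coding forms, including those tied by length, summed to 15.6 and 27.4 TPM. Without length correction, as CPM over protein-coding genes, Irf3 ranked 4 of 8, at 45.1 and 109 in replicates 1 and 2.

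Irf7, which amplifies interferon production once interferon has been made, ranked 7 of 8. It stood at 2.05 TPM (61 expected counts) in replicate 1 and 4.34 TPM (156 expected counts) in replicate 2, a mean of 3.20 ± 1.62 TPM (SD, n = 2). Replicate 2 was again the higher library. The gene lies on chromosome 7 from 141262706 to 141266481 on the − strand. Irf5, an activator of inflammatory cytokine genes downstream of Toll-like receptors, ranked 6 and lay the other way. Its level was 6.26 TPM (264 expected counts) in replicate 1 and 4.68 TPM (198 expected counts) in replicate 2, a mean of 5.47 ± 1.12 TPM (SD, n = 2). It lies on chromosome 6 from 29526625 to 29541871 on the + strand.

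Irf9, the DNA-binding subunit of the complex with STAT proteins, was among the members whose libraries lay closest. It stood at 23.1 TPM (1010 expected counts) in replicate 1 and 22.1 TPM (1069 expected counts) in replicate 2, a mean of 22.6 ± 0.750 TPM (SD, n = 2). The gene lies on chromosome 14 from 55603571 to 55610030 on the + strand. Its partner Stat2, named here for its role with its values already seen, was also detected, at 6.14 and 7.90 TPM.

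Irf2, which represses many of the sites that Irf1 activates, ranked 4. It stood at 18.9 TPM (908 expected counts) in replicate 1 and 20.8 TPM (992 expected counts) in replicate 2, a mean of 19.9 ± 1.37 TPM (SD, n = 2). It lies on chromosome 8 from 46739732 to 46847458 on the + strand. Irf1, an activator that interferon gamma induces, ranked 5. It stood at 6.10 TPM (241 expected counts) in replicate 1 and 10.6 TPM (427 expected counts) in replicate 2, a mean of 8.33 ± 3.15 TPM (SD, n = 2). Irf2 exceeded Irf1 in both libraries. Irf1 lies on chromosome 11 from 53770014 to 53778374 on the + strand.

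Irf8, the monocyte and dendritic cell factor, was the highest member in replicate 1 and ranked 2 by mean. It stood at 27.4 TPM (1546 expected counts) in replicate 1 and 30.3 TPM (1709 expected counts) in replicate 2, a mean of 28.9 ± 2.11 TPM (SD, n = 2). Among detected genes this placed Irf8 above 74.5% in replicate 1 and above 77.0% in replicate 2. Irf8 lies on chromosome 8 from 120736358 to 120756694 on the + strand. Irf4, its relative in B cells and plasma cells, had 53 expected counts (0.56 TPM) in replicate 1 and 1 expected count (0.01 TPM) in replicate 2. Irf4 was thus at a single count in replicate 2 and low in replicate 1. It lies on chromosome 13 from 30749226 to 30766976 on the + strand.

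Each gene was set against the others within a library as log2(TPM + 1), and the mean ratio over both libraries was tested with limma's moderated test and Benjamini-Hochberg adjustment over all 11655 genes fitted beside the same reference gene. Among the 7 pairs of neighbours in the order of mean TPM, 2 passed at an adjusted p of 0.05. The share of all fitted genes that differed from the reference was 41.9% for Irf3, 80.9% for Irf8, 76.5% for Irf9, 73.4% for Irf2, 50.6% for Irf1, 65.9% for Irf5 and 59.5% for Irf7. Irf2 exceeded Irf1 by a log2 ratio of 1.20 (SE 0.36; 1.49 and 0.92 in replicates 1 and 2; limma adjusted p = 0.00673). Irf7 exceeded Irf4 by 1.68 (SE 0.55; 0.97 and 2.40; limma adjusted p = 0.00561). Every pair with 1 gene from the upper and 1 from the lower group passed except Irf3 over Irf1 (limma adjusted p = 0.0753), and all 7 other members passed over Irf4. The test thus did not set the whole upper group apart from Irf1.

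Within the groups no pair of neighbours passed on the TPM scale. Irf3 over Irf8 had a log2 ratio of −0.12 in replicate 1 and 1.05 in replicate 2, a mean of 0.47 with a 95% interval of −1.71 to 2.64 (limma adjusted p = 0.758). Irf8 over Irf9 had a mean log2 ratio of 0.34 with an interval of −0.20 to 0.88 (limma adjusted p = 0.222), and it passed as CPM without length correction, at a log2 ratio of 0.64 (limma adjusted p = 0.00424). Irf9 over Irf2 had 0.18 with an interval of −0.35 to 0.70 (limma adjusted p = 0.50). In the lower group Irf1 over Irf5 had 0.50 with an interval of −0.67 to 1.66 (limma adjusted p = 0.508), and its sign differed between the libraries. Irf5 over Irf7 had 0.67 with an interval of −0.35 to 1.69 (limma adjusted p = 0.254). Across all 28 pairs 18 passed, and 26 had the same sign in both libraries.

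**Figure D2:**
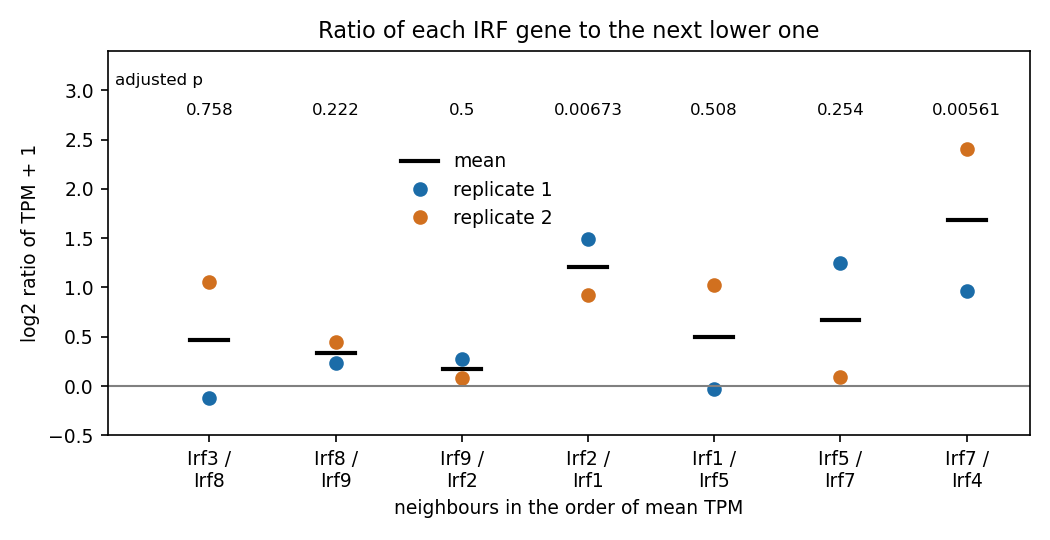
Log2 ratio of TPM + 1 between neighbours in the order of mean TPM, with the value of each library as a point, the mean as a bar and limma's adjusted p above. The ratios of Irf2 to Irf1 and of Irf7 to Irf4 are the 2 with an adjusted p under 0.05, and the ratios of Irf3 to Irf8 and of Irf1 to Irf5 change sign between the libraries.

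In this fit the reference gene's own difference between the libraries enters the error of each ratio. With Irf3, Irf1, Irf5 or Irf7 as the reference, the test from 2 libraries used 11655 degrees of freedom. With Irf8, Irf9 and Irf2 it used 11.5, 9.41 and 17.5. Ratios that share a reference are not independent, so 11655 degrees of freedom are more than 2 libraries give for these p-values and intervals. When the moderated variances of both genes were summed instead, a choice made after the data were seen, limma's adjusted p was 0.0280 for Irf2 over Irf1 and 0.0464 for Irf7 over Irf4. The same 18 pairs passed, with 2 more, Irf3 over Irf2 (adjusted p = 0.0312) and Irf3 over Irf1 (adjusted p = 0.00136). The SE of Irf3 over Irf8 was 1.11 in the first fit and 0.35 with summed variances. That of Irf7 over Irf4 went the other way, at 0.55 and 0.64. With the lower gene as the reference 20 of the 28 pairs passed: Irf2 over Irf1 was lost (limma adjusted p = 0.0545), and Irf3 was gained over Irf9 (0.0304), Irf2 (0.00251) and Irf1 (0.000124). With a pseudocount of 0.1, Irf7 over Irf4 (limma adjusted p = 0.0663) and Irf5 over Irf4 (0.0713) no longer passed.

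Expected counts of each gene were then compared between the 2 libraries, replicate 2 over replicate 1, by a two-sided exact binomial test with sizes scaled by the trimmed mean of M-values (TMM) and adjustment over 13616 genes. The test covers counting error alone. It called 6 of the 8 members, 4 higher in replicate 2 and 2 higher in replicate 1, and 78.2% of all tested genes, 40.6% higher in replicate 2 and 37.6% higher in replicate 1. The members' share was thus near the background. The median absolute log2 fold was 0.44 over the 7 members with 50 or more counts in each library, which leaves out Irf4, and 0.36 over all 10156 such genes.

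Irf3 had a log2 fold of 1.16 (95% counting interval 1.01 to 1.30; exact binomial adjusted p = 2.05e-60). Among genes with 50 or more counts in each library 91.8% had a smaller absolute fold. Irf7 had 1.33 (0.89 to 1.78; exact binomial adjusted p = 4.55e-10), and Irf1 had 0.80 (0.57 to 1.03; exact binomial adjusted p = 1.09e-11). Irf4 had −5.76 (−11.1 to −3.22; exact binomial adjusted p = 8.49e-15), from 53 counts against 1. Irf4 was therefore the member furthest apart between the pools. Irf5 had −0.44 (−0.72 to −0.17; exact binomial adjusted p = 0.00168).

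The 3 remaining members had small folds. Irf8 had a log2 fold of 0.12 (0.02 to 0.22; exact binomial adjusted p = 0.0285), Irf2 had 0.10 (−0.03 to 0.23; exact binomial adjusted p = 0.162) and Irf9 had 0.05 (−0.07 to 0.18; exact binomial adjusted p = 0.443). For scale, 18.3% of genes with 50 or more counts in each library had a smaller absolute fold than Irf8. A further test took the spread between the libraries as biological, with the common dispersion of 0.575 that edgeR estimated. That dispersion came from the difference between the same 2 libraries, so few calls were set in advance. At that dispersion edgeR's exact test called 0 of the 8 members and 0 of 13616 genes, and 1 member had an unadjusted p under 0.05.

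Markers of other cell types also differed between the libraries, in both directions. The 10 dendritic cell markers summed to 21.2 TPM in replicate 1 and 45.8 TPM in replicate 2, where Irf7 and Irf3 were higher. The difference between the sums rested on H2-Aa, at 0.05 and 16.6 TPM, and Cd74, at 0.04 and 7.44 TPM. Of 5 tested 3 were called higher in replicate 2 (60%, against 40.6% of all genes) and 1 in replicate 1 (20%, against 37.6%). The latter was Flt3, with 1168 and 986 counts (exact binomial adjusted p = 2.45e-05), and H2-Ab1, the partner chain of H2-Aa, had 144 and 137 (exact binomial adjusted p = 0.627). Itgax, Cd209a, Siglech and Xcr1 were listed at 0 in both libraries. The 10 markers of monocytes and macrophages summed to 87.1 TPM in replicate 1 and 49.5 TPM in replicate 2, with Cd14 listed at 0 in both. Of 8 tested 6 were higher in replicate 1 (75%, against 37.6% of all genes) and 2 in replicate 2 (25%, against 40.6%). The other 2 went against the sum: Ccr2 had 198 and 586 counts and Mrc1 0 and 26. The part of these markers in the members' differences was not tested.

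**Figure D3:**
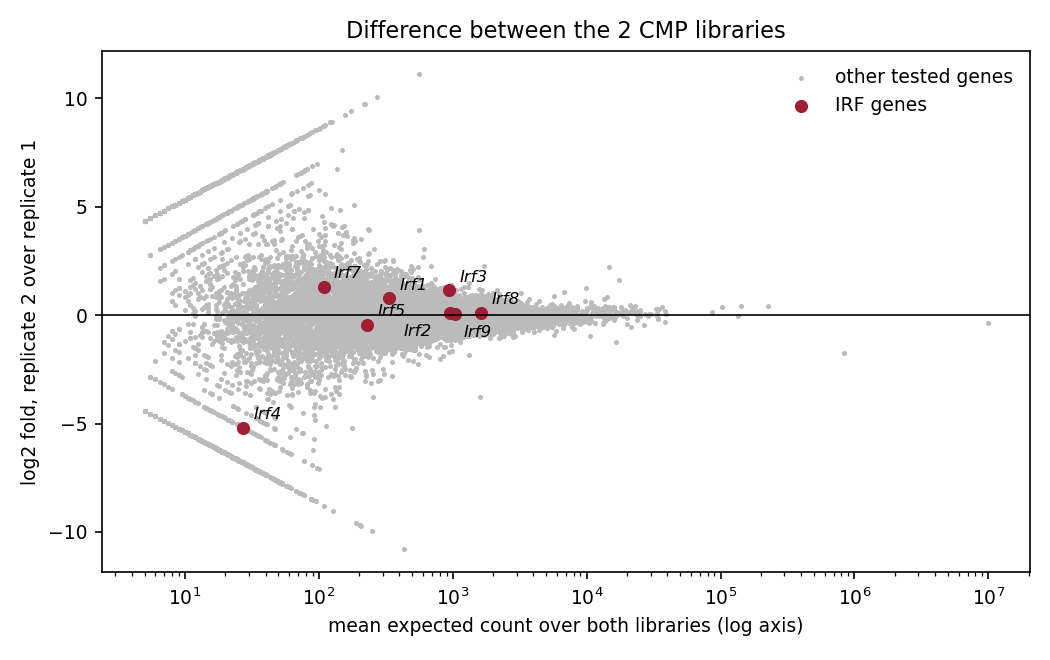
Log2 fold of expected counts, replicate 2 over replicate 1, after adding 0.5 to each count, against the mean expected count (log axis); each grey point is a tested gene and red points are the 8 IRF genes. Irf2, Irf8 and Irf9 lie close to 0, Irf1, Irf3 and Irf7 above it, Irf5 slightly below it and Irf4 far below it.

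The libraries also differed in which transcripts of a gene took its reads. The leading transcript, the one with the highest mean share, was compared by Fisher's exact test on rounded expected counts, for genes that had at least 2 transcripts and at least 50 counts per library. Of the 8 members 6 could be tested, since Irf2 has 1 transcript in the tables and Irf4 too few counts, and 5 passed. Of 7355 genes tested 77.0% passed, so the members' share was close to that of all genes. The test covers counting error on the deposited point assignment of reads and not the uncertainty of that assignment. The leading share differed by a median of 31.7 percentage points over the 6 members and 18.0 over all genes tested. With the deposited posterior means, which spread uncertain reads, these medians were 9.14 over the members and 16.5 over all genes, which reversed their order.

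Counts of Irf1 were assigned to a different first exon in each library. In replicate 1 all 241 counts were assigned to Irf1-201, and in replicate 2 all 427 were assigned to Irf1-202 (Fisher's exact test, adjusted p = 1.44e-187). In 155 of the genes tested (2.11%) 1 transcript held all counts in 1 library and none in the other. Those counts were not required to lie on a single transcript in the other library. The transcripts share 9 of 10 exons and the start codon, and their starts lie 481 bases apart. Their distinct first exons are non-coding, 197 bases long in Irf1-201 and 265 bases in Irf1-202. The posterior means gave Irf1-201 78.8% in replicate 1 and 6.86% in replicate 2, and Irf1-202 10.4% and 86.0%. The credibility bounds of Irf1-202 were 3.16e-07 to 1.97 TPM in replicate 1 and 7.67 to 10.7 TPM in replicate 2, and did not overlap.

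The 150 bases before each Irf1 start are shown because the libraries differed in the start to which counts were assigned. The upstream start is that of Irf1-202 (GRCm38.p6, chr11:53769864-53770013, + strand), and the downstream one lies 22 bases before the first base of Irf1-201 (chr11:53770323-53770472, + strand). Both were taken from RefSeq's promoter windows of 300 bases, and capitals mark motif matches.
Irf1, upstream start: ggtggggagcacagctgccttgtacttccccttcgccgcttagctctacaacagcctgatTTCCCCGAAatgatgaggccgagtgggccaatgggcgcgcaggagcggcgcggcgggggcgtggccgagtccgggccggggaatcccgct
Irf1, downstream start: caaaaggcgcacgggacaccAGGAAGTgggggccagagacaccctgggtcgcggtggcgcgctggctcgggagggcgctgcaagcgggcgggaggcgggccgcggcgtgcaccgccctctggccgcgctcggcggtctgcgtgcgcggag

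The capitals before the upstream start are a gamma-activated site, TTCNNNGAA, a form that STAT proteins bind, 90 bases before the start. This form occurred in 8.30% of 32851 promoter windows of the same length. The capitals before the downstream start are an ETS core with its flanks, AGGAAGT, which occurred in 9.35% of windows. A match of letters is a description and not evidence of binding.

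Irf5 and Irf9 differed in the same manner but less completely. Irf5-201 held 85.2% of the gene's TPM in replicate 1 and 32.5% in replicate 2, and Irf5-202 held the rest (Fisher's exact test, adjusted p = 2.24e-31). These transcripts share 8 of 9 exons and the start codon, and their non-coding first exons start 2657 bases apart. The posterior means of Irf5-201 were 66.6% and 27.2%. Its credibility bounds overlapped, at 2.43 to 6.20 TPM and 4.05e-05 to 2.88 TPM.

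In Irf9 the leading form, Irf9-205, held 48.2% in replicate 1 and 27.8% in replicate 2 (Fisher's exact test, adjusted p = 8.21e-30). Its posterior means were 38.9% and 29.0%, and its credibility bounds overlapped, at 4.71 to 11.3 TPM and 4.02 to 8.37 TPM. Irf9-202 held 0.01% in replicate 1 and 46.3% in replicate 2. Its posterior means were 8.90% and 43.8%, and its bounds, 0.000538 to 5.27 TPM and 7.17 to 11.4 TPM, did not overlap. The 2 transcripts share 8 of 9 exons and start 594 bases apart. Their annotated start codons differ, at 55604669 in Irf9-205 and 55605053 in Irf9-202. The summed level of Irf9 was nearly equal in both libraries. Transcripts annotated as retained introns held 38.9% of the Irf9 level in replicate 1 and 18.9% in replicate 2.

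Irf7-202 held 83.1% in replicate 1 and 40.0% in replicate 2, with 57 counts in each (Fisher's exact test, adjusted p = 3.75e-15). That difference nearly vanished with posterior means, at 33.3% and 28.6%, and the credibility bounds overlapped, at 0.18 to 1.63 TPM and 0.46 to 2.68 TPM. The retained-intron transcript Irf7-210 took 0% and 42.0%, with posterior means of 7.60% and 32.7% and bounds that did not overlap (1.55e-06 to 0.62 TPM and 0.91 to 2.71 TPM). Irf7-203 took 0% and 18.0%, with posterior means of 6.25% and 10.4%. Irf8 was the most even member tested. Irf8-201, the full coding form, held 92.1% and 90.0% (Fisher's exact test, adjusted p = 0.0238), and the retained-intron transcript Irf8-207 held the rest. The leading form of Irf3, the 629-base one, did not pass (Fisher's exact test, adjusted p = 0.146). The 1712-base form of Irf3, not tested because it does not lead on average, held 45.1% in replicate 1 and 2.42% in replicate 2.

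**Figure D4:**
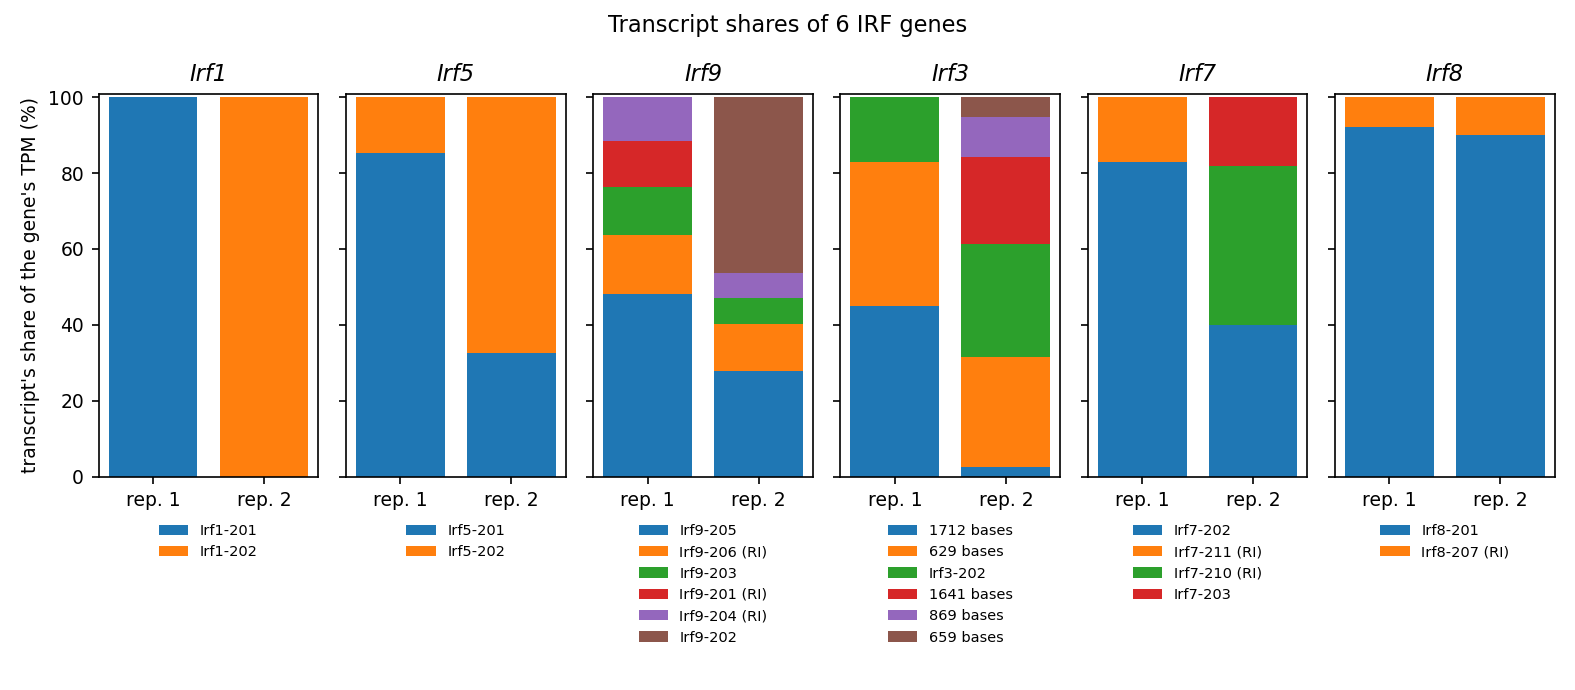
Share of each gene's TPM (%) held by each transcript with 1% or more in a library, as stacked bars for replicates 1 and 2; RI marks retained-intron transcripts and Irf3 forms with no matched identifier are named by length. Irf1 goes from all Irf1-201 to all Irf1-202, and Irf8 keeps 92.1% and 90.0% on Irf8-201.

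Several members share ground with other genes, and whether the counting used strand is not given in the sources used here. Of the 8 members 6 overlap a gene that had counts. Bcl2l12, a Bcl2 family gene on the opposite strand, overlaps Irf3 by 1065 bases and had 439 and 372 expected counts in replicates 1 and 2. Scaf1 lies within 1000 bases of Irf3, also on the opposite strand, with 922 and 1136 counts. Irf3 thus differed between the libraries by more than either neighbour: their log2 folds were −0.27 for Bcl2l12 and 0.27 for Scaf1.

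Tnpo3, a nuclear import receptor on the opposite strand, overlaps Irf5 by 1045 bases and had 2629 and 2052 expected counts. Its log2 fold of −0.39 had the sign of Irf5. Phrf1 overlaps Irf7 by 45 bases on the opposite strand, with 1573 and 1697 counts. Rnf31 overlaps Irf9 by 123 bases on the same strand, with 592 and 580 counts. Gm17334 lies inside Irf1 on the opposite strand, with 51 counts in replicate 1 and 0 in replicate 2. Reads of the overlaps on the opposite strand cannot be told apart from reads of the members unless strand was used. For Rnf31 and Irf9, on the same strand, the use of strand would not separate them.

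Gm20388 spans Irf8 on the same strand, with 0 counts in replicate 1 and 149 in replicate 2, and none of its 16 M21 exons overlaps an exon of Irf8. Gm16675 starts beside Irf2 on the opposite strand and had 43 and 76 counts. Gm45479, Gm31172 and Gm45481 lie inside Irf2 in M21 and were not analysed here, since no entry of the tables carries their identifiers.

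Promoter windows were given for all 8 members, 11 in all, and 5 of them, from 4 members, held one of the motifs searched on both strands. The share of all windows with any of these motifs is not given here, so that count has no background. Irf2 held 4 of the 5 motifs and Irf8 held 2 gamma-activated sites, so their sequences are shown with matches in capitals (GRCm38.p6, + strand: chr8:46739495-46739644 for Irf2 and chr8:120736158-120736357 for Irf8).
Irf2: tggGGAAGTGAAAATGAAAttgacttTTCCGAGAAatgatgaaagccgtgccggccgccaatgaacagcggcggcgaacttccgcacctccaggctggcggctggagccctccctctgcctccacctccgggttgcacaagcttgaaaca
Irf8: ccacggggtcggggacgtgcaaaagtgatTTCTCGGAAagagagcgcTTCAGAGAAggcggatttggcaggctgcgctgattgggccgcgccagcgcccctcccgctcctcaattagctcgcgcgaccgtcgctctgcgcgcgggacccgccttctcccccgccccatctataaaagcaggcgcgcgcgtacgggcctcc

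The first run of capitals in Irf2 holds an ETS-IRF composite, GGAANNGAAA, found in 2.72% of all windows. It overlaps an ISRE core, GAAANNGAAA, found in 3.44%. These matches lie 247 and 241 bases before the start, inside the span of Gm16675 on the opposite strand. The second run is a gamma-activated site, TTCNNNGAA, 224 bases before the start. In Irf8 both runs are gamma-activated sites, 171 and 153 bases before the start. An NF-kappaB core, GGGNNNNTCC, occurred in 19.2% of all windows and in those of Irf2 and Irf4, outside the stretches shown. No motif searched was found in the windows of Irf3, Irf5, Irf7 or Irf9. In the 100 bases before the start alone, 1 of the 11 windows held a gamma-activated site, against 2.55% of all windows. An NF-kappaB core was held by 1, against 7.47%. None held an ISRE core, against 0.98%.

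The genes around the IRFs were grouped by role, and the share of detected members in each list was read against 44.9% of all protein-coding genes. Several genes, Stat2, Ifih1, Tlr9, Ciita, Klf4 and Batf3 among them, stand in 2 lists each. None of the 21 interferon genes was detected. Ifnab had 1 expected count in replicate 1, and the other 20, Ifnb1 and Ifng among them, were listed at 0 in both libraries. Transcripts of the interferon genes that Irf3 and Irf7 control were thus not detectable at this depth.

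Of 12 genes for interferon receptors and the JAK-STAT chain 11 were detected. The highest were Ifngr1, a subunit of the interferon gamma receptor, at 69.4 and 73.4 TPM in replicates 1 and 2, the kinase Jak1 at 46.8 and 43.7 TPM, Ifnar2 of the type I receptor at 48.2 and 32.5 TPM, and Stat3 at 16.0 and 41.5 TPM. Ifnlr1, of the interferon lambda receptor, was the undetected one, with 47 counts in replicate 1 and 0 in replicate 2. Ifnar1, the other type I subunit, was lower in replicate 2, with 900 and 369 counts (log2 fold −1.31; exact binomial adjusted p = 2.44e-52).

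The sensors that start the pathway were detected in 5 of 14 cases. Ifih1 stood at 7.17 and 14.7 TPM, Ddx58 at 7.62 and 5.14 TPM, Cgas at 7.55 and 5.04 TPM and Dhx58 at 3.57 and 2.94 TPM, all sensors of nucleic acid in the cytosol. The Toll-like receptors Tlr8 and Tlr13 were listed at 0 in both libraries, Tlr7 had 2 and 23 counts, and Tlr3 had 0 and 57. Nod1 had 64 and 1 counts.

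Adaptors and kinases between the sensors and the IRFs were detected in 17 of 18 cases. Ikbkb stood at 56.6 and 54.4 TPM, Irak1 at 59.7 and 42.5 TPM, Tank at 29.8 and 26.1 TPM and Azi2 at 16.0 and 21.6 TPM. Tbkbp1, a Tbk1-binding adaptor, had 1 and 81 counts, and Traf6 was lower in replicate 2 (log2 fold −0.73; exact binomial adjusted p = 1.14e-35). Tbk1 itself, named for its role with its values already seen, stood at 12.8 and 13.8 TPM.

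Of 18 DNA-binding partners and related factors 13 were detected. Myb led at 208 and 219 TPM, before Ikzf1 at 91.3 and 64.6 TPM, Etv6 at 69.2 and 62.0 TPM and Gata1 at 53.9 and 52.6 TPM, all regulators of blood progenitors. Spib and Batf3, partners of Irf8 and Irf4 in dendritic cells, were listed at 0 in both libraries, Batf2 had 1 and 0 counts and Ikzf3 1 and 9. Jun was higher in replicate 2 (log2 fold 1.07; exact binomial adjusted p = 1.45e-52) and Ets1 lower (−1.66; exact binomial adjusted p = 3.95e-11). Spi1, the ETS factor that recruits Irf8 and Irf4 to composite sites, was named for that role with its values seen and stood at 8.79 and 13.2 TPM.

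Of 18 regulators of IRF proteins and of interferon signalling 14 were detected. The corepressor Trim28 stood at 428 and 304 TPM, the phosphatase Ptpn6 at 59.8 and 49.96 TPM, the acetyltransferase Ep300 at 46.4 and 27.9 TPM and the Irf2-binding corepressor Irf2bp2 at 28.7 and 39.6 TPM. Irf2bpl, Socs1 and Socs3 were below 1 TPM in both libraries, Socs3 with 0 and 14 counts. Trex1, a DNase that limits sensing of self DNA, was higher in replicate 2 (log2 fold 1.45; exact binomial adjusted p = 1.24e-15).

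Of 28 interferon-stimulated genes 19 were detected. Ifitm3, a membrane protein that blocks virus entry, stood at 65.7 and 83.9 TPM, Ifi27 at 47.0 and 87.8 TPM, Sp100 at 51.0 and 46.0 TPM and Isg20 at 38.1 and 37.3 TPM. Below 1 TPM in both were Mx1, Rsad2, Cxcl10, Ifit3 and Ifit3b, and the last 3 were listed at 0. Of 24 tested between the libraries 15 were higher in replicate 2 (62.5%, against 40.6% of all genes) and 6 in replicate 1 (25.0%, against 37.6%). Single genes went both ways: Oasl2 had 3 and 168 counts and Isg15 71 and 2. Oas genes have close relatives, and how reads were divided among them is uncertain.

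Targets of Irf1 and interferon gamma were detected in 17 of 21 cases and included the highest levels of any list. B2m, the light chain of class I molecules, stood at 739 and 735 TPM, the heavy chains H2-K1 at 195 and 283 TPM and H2-D1 at 135 and 154 TPM, and the immunoproteasome subunit Psmb8 at 69.3 and 81.0 TPM. H2-K1 and H2-D1 are near copies of each other, so their division is uncertain. Cxcl9, Iigp1 and Gbp4 were listed at 0 in both, and Ciita, the activator of class II genes, had 0 and 49 counts. Of 18 tested 11 were higher in replicate 2 (61.1%, against 40.6% of all genes) and 2 in replicate 1 (11.1%, against 37.6%). Psmb10 was among the former (log2 fold 0.92, exact binomial adjusted p = 5.40e-25). Irf1 too was higher in replicate 2, and the shares are a description.

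Genes of the Irf8 programme in monocytes and dendritic cells were detected in 8 of 18 cases (44.4%), the share of all protein-coding genes. Zeb2 stood at 108 and 104 TPM, Cst3 at 59.9 and 69.5 TPM, Gsr at 15.6 and 24.1 TPM and Ly86 at 14.6 and 13.8 TPM. Batf3, Xcr1 and Fcgr1 were listed at 0 in both, and Cybb had 33 and 3 counts. Id2 had 0 and 83 counts and Cx3cr1 67 and 0, so single genes of the list appeared in 1 library each while Irf8 itself differed by a log2 fold of 0.12.

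Genes of the Irf4 programme were detected in 3 of 10 cases. Zeb1 stood at 29.2 and 16.8 TPM, Xbp1 at 26.9 and 23.8 TPM and Bcl6 at 2.55 and 1.29 TPM. Il4 was at 0 and 6.21 TPM and Sdc1 at 0 and 0.34 TPM. Prdm1 and Nr4a1 were below 1 TPM in both, and the plasma cell gene Jchain was listed at 0. Cd79a, Pax5, Ms4a1 and Ebf1 of the B cell markers were also at 0 in both libraries, while Ighm stood at 30.1 and 47.8 TPM. Of 8 tested in the Irf4 programme 3 were higher in replicate 1 (37.5%, against 37.6% of all genes). Another 4 were higher in replicate 2 (50%, against 40.6%). Bcl6, Xbp1 and Zeb1, the detected ones, were the 3, with log2 folds of −1.02, −0.29 and −0.17 (exact binomial adjusted p = 6.20e-08, 3.93e-05 and 0.00862). Irf4 too was higher in replicate 1. Of 4 B and plasma cell markers tested 3, Ighm, Cd79b and Sdc1, were higher in replicate 2 (75%, against 40.6% of all genes). The other, Vpreb1, had 66 and 1 counts, beside 53 and 1 for Irf4. In the Irf4 programme the 4 higher in replicate 2 were Il4, Sdc1, Prdm1 and Nr4a1. Prdm1 had 59 and 95 counts and Nr4a1 9 and 45.

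**Figure D5:**
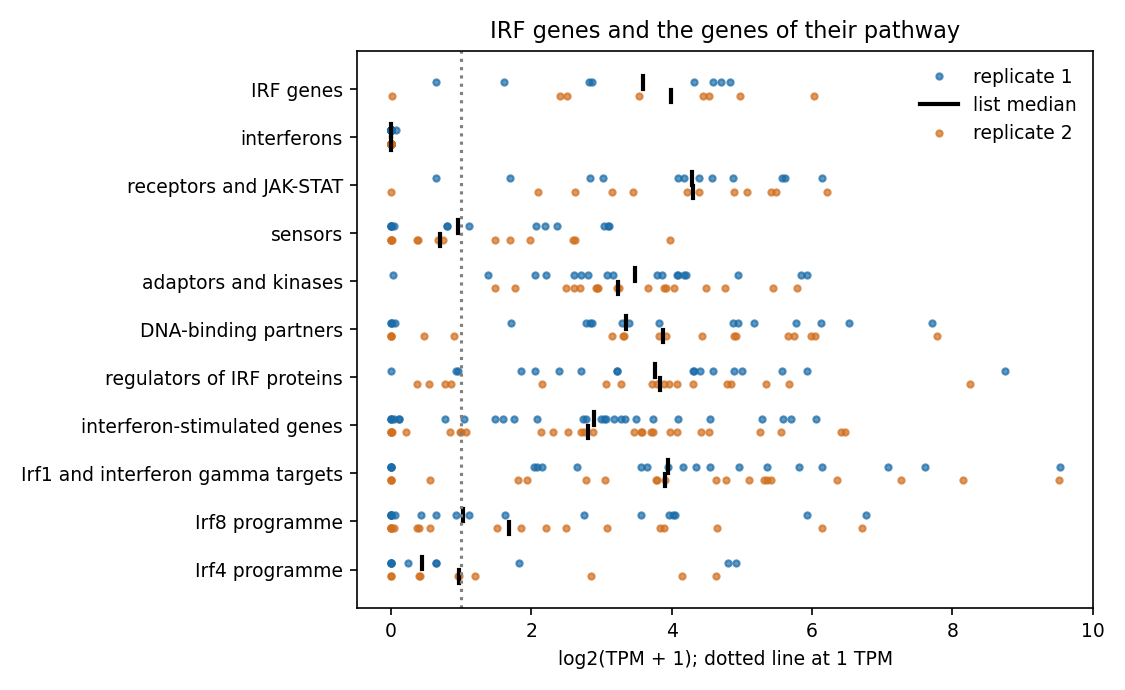
Level, log2(TPM + 1), of each IRF gene and of each gene in the 10 lists, with points for replicates 1 and 2 and black bars for the median of each list. The interferon genes lie at or near 0, and the medians of the receptor, adaptor, partner and regulator lists lie above the dotted line at 1 TPM in both libraries.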

How the data were processed

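The authors deposited a gene and a transcript table per library, aligned to mm10 with GENCODE M4 per the deposited notes. Strand use and the quantifier's name and version: not given in the sources used here. Per the file headers, the deposited expected counts are estimates that divide shared reads. The deposited TPM values cover all entries, tRNA and spike-ins included. The deposited percent values give each transcript's share of its gene's TPM. The deposited credibility bounds of TPM were treated as scores with no stated level. Identifiers without version were matched to GENCODE M21 (GRCm38).

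Here expected counts were rounded for tests. Versions were limma 3.58.1, edgeR 4.0.16, DESeq2 1.42.0, R 4.3.3 and scipy 1.17.1. Ratios used a pseudocount of 1 TPM and protein-coding genes that reached 10 counts in either library; the binomial test used the same minimum. Tests were two-sided and adjusted over all genes. The binomial, Fisher and ratio tests were checked on simulated data with counting error alone or equal noise in every gene. That check does not cover the spread between these libraries. With 1 group, no test between groups exists. Proteins were not analysed here, and some genes under the naming rule are not reported here. The members and lists were chosen with earlier results of these data known. Named are all 8 members, genes within 1000 bases, and per list the 4 highest, up to 4 below 1 TPM and up to 2 with the largest called fold; others are marked. Alternatives covered pseudocounts, thresholds, posterior means, scalings, count minimums, length correction, variance trend, coding transcripts and single libraries.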

Additional observations from a re-analysis of the deposited data

How the results depend on the processing

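No paired analysis was possible because both libraries belong to 1 group. The number of IRF genes detected was 7 under every alternative tried, single libraries included, and mean TPM moved by less than the SD between libraries under posterior means except for Irf9 (21.7 against 22.6). Of 7 neighbouring pairs 2 passed, 1 passed with a pseudocount of 0.1 or with the lower gene as the reference, and 3 passed on counts without length correction; the cause was not tested. Ratios that changed sign did so on counts without length correction, with log2 values of −0.90 for Irf3 over Irf8, −0.26 for Irf3 over Irf9 and −0.13 for Irf3 over Irf2, or in a single library, with a range of −0.12 to 1.05 for Irf3 over Irf8 and −0.032 to 1.02 for Irf1 over Irf5. No ratio can be tested in a single library. The binomial call of 6 members became 0 in edgeR's exact test at the common dispersion, where 0% of all genes were called. Few calls were set in advance there, since the dispersion was estimated from the same 2 libraries. Scaling by total counts shifted the median log2 fold of genes with 50 or more counts in each library by 0.20; Irf2 and Irf9 then passed and Irf5 did not (exact binomial adjusted p = 0.0932). Transcript calls covered 4 or 5 members under all 4 alternatives; the one with posterior means changed only which transcript leads and tested the same counts. The mean leading share of Irf7 was 61.5% and became 31.0% as posterior means. The median absolute log2 fold over all 8 members, Irf4 included, was 0.62; the median over the 7 with enough counts was chosen after seeing the data. With 2 libraries of 100 cells, Irf4, with 53 and 1 counts, and Irf7, with 61 and 156, have the least depth.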
